A study of Mus musculus with 9 samples.

Results

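In the bulk liver RNA sequencing of mice with chronic colitis, 10 genes of the IL-6, IL-1 and STAT3 signalling route were followed through all 9 libraries. They are the receptor genes Il6ra, Il6st, Osmr and Il1r1, the transcription factor gene Stat3, the feedback gene Socs3, the factor genes Cebpb, Cebpd and Nfkbiz, and the secreted target gene Lbp. They were picked by gene symbol for their place in the pathway, not by a measured value, and all 10 were found among the 56748 genes of the table, of which 23877 had a count in any library. Each group had 3 C57BL/6 mice (C57BL/6J in the design text of the series). Control mice are labelled as given water. DSS mice had 3 cycles of 1.8% dextran sulfate sodium (DSS), a polymer that injures the colon, in drinking water and took sterile water by mouth. Indirubin mice had the same DSS cycles and took 1 g/kg/day of indirubin, a component of the herbal product indigo naturalis, by mouth. The design text of the series describes chronic colitis without setting the Control mice apart, so their state is known only from that label. Whole liver tissue was used.

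The acute-phase response is the change in secreted proteins that the liver makes during inflammation elsewhere in the body. IL-6 binds its receptor subunit (Il6ra) on hepatocytes, the shared subunit gp130 (Il6st) then activates JAK kinases, and these phosphorylate STAT3, which enters the nucleus and switches on acute-phase genes as well as its own inhibitor Socs3. IL-1 acts through Il1r1 and NF-kB, induces Nfkbiz and C/EBP factors, and acts with IL-6 on many of the same target genes. STAT3 is controlled largely by phosphorylation, which RNA levels do not measure.

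Sequences upstream of the start site are shown for a pair of these genes, because they carry letters to which the factors of the pathway are known to bind. Both run 5′ to 3′ on the strand of the gene over the last 250 bases before the RefSeq start, in the build GRCm38.p6, which is not the build of the counts (GRCm39). In Socs3, at chr11:117969367-117969616 on the minus strand, capitals mark a match to the STAT motif TTCNNNGAA. In Il6ra, at chr3:89913197-89913446 on the minus strand, capitals mark 2 matches to the C/EBP motif TTNNGNAA.
Socs3: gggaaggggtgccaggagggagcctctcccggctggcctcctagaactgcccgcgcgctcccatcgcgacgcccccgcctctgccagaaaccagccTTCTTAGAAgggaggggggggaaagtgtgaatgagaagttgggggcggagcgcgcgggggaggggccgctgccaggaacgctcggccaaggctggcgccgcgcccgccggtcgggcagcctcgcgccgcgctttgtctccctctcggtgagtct
Il6ra: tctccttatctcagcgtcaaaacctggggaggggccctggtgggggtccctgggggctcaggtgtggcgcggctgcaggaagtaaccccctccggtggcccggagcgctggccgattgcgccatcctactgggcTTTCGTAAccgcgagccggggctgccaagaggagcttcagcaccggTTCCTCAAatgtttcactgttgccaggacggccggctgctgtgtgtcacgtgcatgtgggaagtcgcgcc
The STAT match ends 145 bases before the RefSeq start of Socs3. Whether that start is also the start of the gene as counted, in the other build, was not checked. A promoter was given for 7 of the 10 genes, in 8 windows. Both motifs were searched on both strands, and they can overlap each other. The STAT letters were present in 1 of the 8 windows and in 7.04% of 32536 mouse windows of the same length, and the C/EBP letters in 4 windows (of Il1r1, Il6ra and Stat3) against 36.8%. A match is a description of the letters and not evidence of binding.

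Library totals lay between 6514863 and 7944684 counts, but mitochondrial transcripts took 71.6 to 91.3% of them, leaving 569044 to 2132208 nuclear counts. The share was 87.5 to 91.3% in Control and 85.8, 87.7 and 72.4% in DSS-1 to DSS-3. It was 89.5% in Indirubin-1, against 71.6 and 77.2% in Indirubin-2 and Indirubin-3, so it was lowest in the 3 libraries with the highest Lbp, and its part in the levels was not tested. Levels are given as normalized CPM, in which counts are scaled to a common library size after correction by the TMM method of edgeR, and 1 count stood for 0.0819 to 0.244 CPM. A count of 0 allowed up to 0.731 CPM in Control-3, 0.584 in Control-1 and 0.532 in DSS-2 (3 counts, counting error only). Hepatocyte markers were abundant in every library, with all 10 detected and a summed level of 12786 to 28116 CPM. Indirubin-1 stood apart from the other Indirubin libraries: its Saa1 count, a major acute-phase transcript whose reads may be shared with the near-identical Saa2, was 53, against 22582 and 29263. The Saa1 counts were 12 to 55 in Control and 2287 to 49900 in DSS. Comparisons of the 10 genes with the Indirubin group are therefore also given without that library. Because it was set apart by its low acute-phase output, a value or p without it is conditioned on that outcome and is given as a description, not as a test of indirubin. Indirubin-2 and Indirubin-3 also carried pancreatic acinar transcripts, with all 14 markers detected and summed at 944 and 1171 CPM, against 0 to 24.4 CPM elsewhere.

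**Figure D1:**
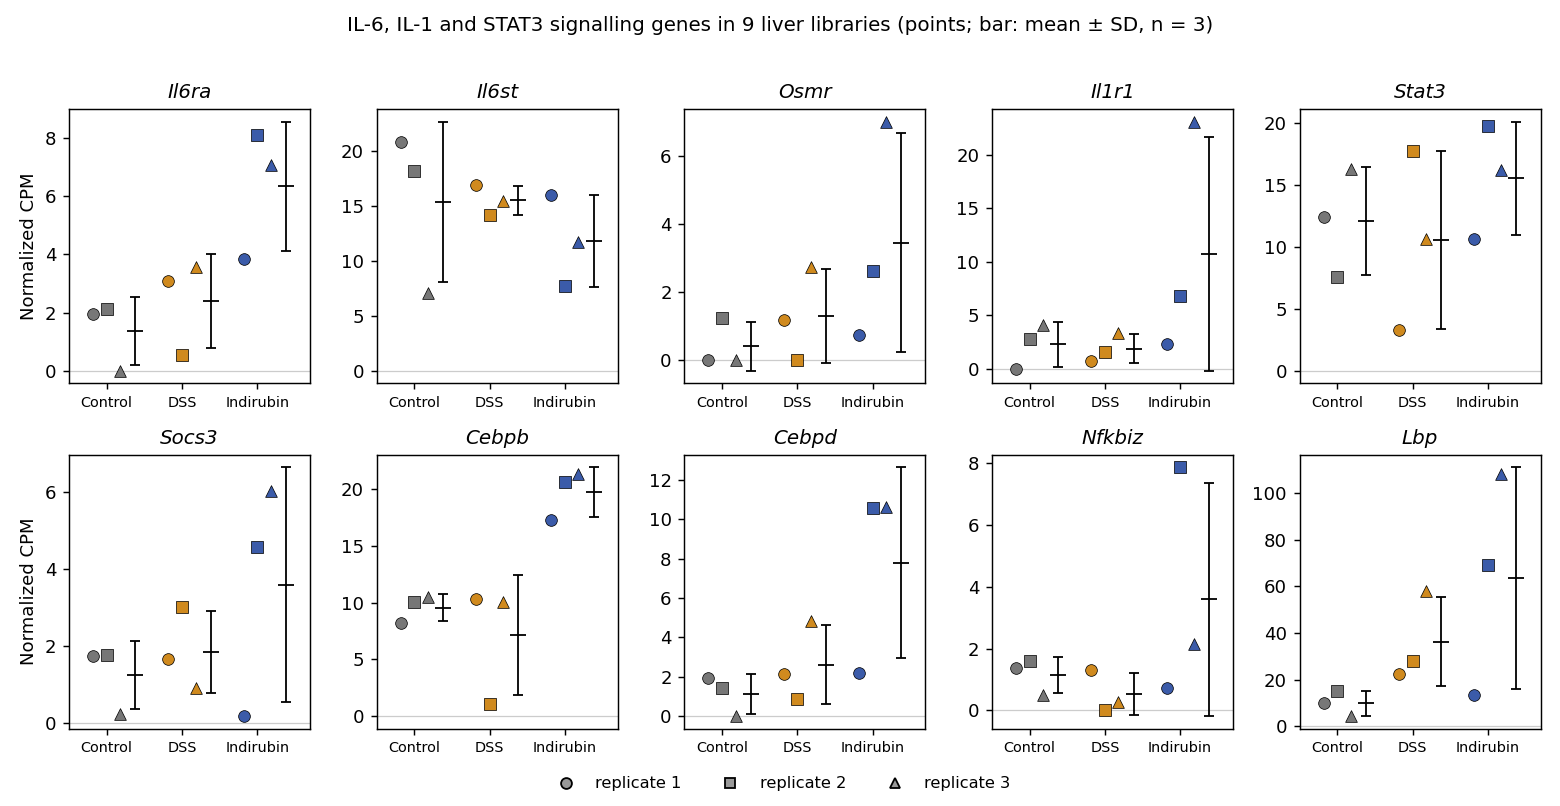
Normalized CPM of the 10 signalling genes in each liver library, by group, with the mean ± SD of 3 libraries (bars) and the replicate number as the marker shape. For 9 of the 10 genes, all but Il6st, Indirubin-1 (circle) is the lowest Indirubin library, and for Cebpb all 3 Indirubin libraries sit at 17.3 to 21.3 CPM, above every other library.

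Il6ra (ENSMUSG00000027947; chromosome 3, 89771366 to 89820503, GRCm39) encodes the subunit that gives a cell its direct response to IL-6. Its level was 1.95, 2.11 and 0 CPM in Control-1 to Control-3, 3.08, 0.53 and 3.57 in DSS, and 3.86, 8.11 and 7.09 in Indirubin. All 3 Indirubin libraries lay above all others, while Control and DSS overlapped. The group means were 1.35 ± 1.17, 2.39 ± 1.63 and 6.35 ± 2.22 CPM (SD, n = 3). The log2 fold change was 1.38 for Indirubin versus DSS (SE 0.73, adjusted p = 0.742) and 2.22 versus Control (SE 0.86, adjusted p = 0.271), so neither passed 0.05. Without Indirubin-1 the values were 1.54 and 2.33 (adjusted p = 0.6 and 0.199). SE is the error of the log2 fold change, and adjusted p-values throughout come from the quasi-likelihood F test of edgeR, corrected over all genes tested by the Benjamini-Hochberg procedure. These rest on few counts, 0 to 39 in Control and DSS and 21 to 99 in Indirubin. In bulk tissue a lower level from fewer cells of a type and one from less RNA per cell cannot be told apart, here and in every result that follows.

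Il6st (ENSMUSG00000021756; chromosome 13, 112600604 to 112646620), which encodes gp130, the signal-transducing subunit for IL-6, oncostatin M and related cytokines, had the highest level per length of the 4 receptor genes. It stood at 20.8, 18.1 and 7.06 CPM in Control, 16.8, 14.2 and 15.4 in DSS, and 16.0, 7.70 and 11.7 in Indirubin. The groups overlapped in every comparison, and the Control range enclosed the other libraries. Il6st was the one member with a negative log2 fold change for Indirubin versus DSS, -0.40 (SE 0.42, adjusted p = 0.943). Without Indirubin-1 the value was -0.78 (adjusted p = 0.659), and the remaining Indirubin libraries lay below all DSS libraries, as they did for 9.95% of all genes tested.

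Osmr (ENSMUSG00000022146; chromosome 15, 6843058 to 6904450) pairs with gp130 to form a receptor for oncostatin M, and it was the lowest of the 10 genes per length. Its counts were 0, 7 and 0 in Control, 10, 0 and 30 in DSS, and 4, 32 and 81 in Indirubin, or up to 7.0 CPM in Indirubin-3. The groups overlapped, and the gene was too low to be tested against Control. For Indirubin versus DSS the log2 fold change was 1.36 (SE 1.21, adjusted p = 0.922). Without Indirubin-1 it passed the filter against Control, but only through the pair of libraries in which it was high, so the value of 3.32 (SE 1.37, adjusted p = 0.225) is conditioned on that.

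Il1r1 (ENSMUSG00000026072; chromosome 1, 40264240 to 40356417) encodes the signalling receptor for IL-1. Its level was 0, 2.82 and 4.14 CPM in Control, 0.71, 1.59 and 3.38 in DSS, and 2.39, 6.80 and 23.1 in Indirubin. Indirubin-3 was far above all other libraries and Indirubin-1 lay inside the range of the other groups, so the Indirubin mean of 10.8 had an SD of 10.9 CPM (n = 3). Il1r1 had the smallest adjusted p of the 10 genes for Indirubin versus DSS, with a log2 value of 2.48 (SE 0.82, adjusted p = 0.481). Leaving out Indirubin-1 gave 2.84 (SE 0.74, adjusted p = 0.111), and leaving out Indirubin-3 gave 1.27 (adjusted p = 1), the lowest of the values with a library left out, which reached 3.23.

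Stat3 (ENSMUSG00000004040; chromosome 11, 100775924 to 100830366) encodes the factor that receptors with gp130 activate. Its level was 12.5, 7.57 and 16.3 CPM in Control, 3.32, 17.7 and 10.6 in DSS, and 10.6, 19.7 and 16.2 in Indirubin. All groups overlapped, and the DSS mice spanned a wider range than either other group. The means were 12.1 ± 4.38, 10.5 ± 7.20 and 15.5 ± 4.59 CPM (SD, n = 3). Log2 fold changes were -0.18 for DSS versus Control (SE 0.55), 0.57 for Indirubin versus DSS (SE 0.55) and 0.39 for Indirubin versus Control (SE 0.42), with adjusted p of 1, 0.935 and 0.767 in edgeR's test. Without Indirubin-1 the latter pair was 0.66 and 0.46 (adjusted p = 0.916 and 0.678).

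Socs3 (ENSMUSG00000053113; chromosome 11, 117856905 to 117860873), whose upstream window holds the STAT letters shown above, encodes the inhibitor that binds gp130 and JAK kinases and ends the signal. Its counts were 9, 10 and 1 in Control, 14, 17 and 10 in DSS, and 1, 56 and 70 in Indirubin. Indirubin-1 and Control-3 had a single count each, under the limit that a count of 0 allows, and Indirubin-2 and Indirubin-3 had the highest levels (4.59 and 6.05 CPM). Socs3 did not pass the filter on low counts against Control, and its log2 fold change for Indirubin versus DSS was 0.98 (SE 1.04, adjusted p = 0.943). Without Indirubin-1 it was 1.42 against DSS and 1.94 against Control (adjusted p = 0.751 and 0.306), with no overlap between the groups, and the gene entered the fit against Control only once Indirubin-1 was left out.

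Cebpb (ENSMUSG00000056501; chromosome 2, 167530835 to 167532338) encodes C/EBPβ, first known as the nuclear factor for IL-6. It was the member with the highest level per length and with the tightest Indirubin values. Its level was 8.17, 10.04 and 10.5 CPM in Control, 10.3, 1.06 and 10.1 in DSS, and 17.3, 20.65 and 21.3 in Indirubin. The lowest Indirubin library, which was again Indirubin-1, lay above every Control and DSS library, and DSS-2 lay far below all others. The log2 fold change of Indirubin was 1.45 versus DSS (SE 0.62, adjusted p = 0.618) and 1.07 versus Control (SE 0.36, adjusted p = 0.195). Leaving out Indirubin-1 gave 1.44 and 1.02 (adjusted p = 0.488 and 0.132).

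Cebpd (ENSMUSG00000071637; chromosome 16, 15705150 to 15708895) encodes C/EBPδ, a factor that is low in resting liver and is induced by IL-6 and IL-1. Its level was 1.95, 1.41 and 0 CPM in Control, 2.13, 0.89 and 4.84 in DSS, and 2.20, 10.6 and 10.6 in Indirubin. All Indirubin libraries lay above all Control libraries, though Indirubin-1 by little, and DSS overlapped both groups. The log2 fold change was 2.79 for Indirubin versus Control (SE 0.91, adjusted p = 0.188), 1.55 versus DSS (SE 0.75, adjusted p = 0.684) and 1.24 for DSS versus Control (SE 1.32, adjusted p = 0.997). Without Indirubin-1 the value versus Control was 3.08 (adjusted p = 0.0671). With 10, 8 and 0 Control counts, Cebpd passed the filter against Control only through the Indirubin libraries, so both values against Control are conditioned on that.

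Nfkbiz (ENSMUSG00000035356; chromosome 16, 55631738 to 55659262) encodes IκBζ, a nuclear partner of NF-kB that IL-1 induces. Its counts were 7, 9 and 2 in Control, 11, 0 and 3 in DSS, and 4, 96 and 25 in Indirubin. The level in Indirubin-2, 7.87 CPM, stood above all other libraries, of which the next was Indirubin-3 at 2.16, and Indirubin-1 lay within the Control range. For Indirubin versus DSS the log2 fold change was the largest among the 10 genes, 2.71 (SE 1.34, adjusted p = 0.697). Without Indirubin-1 it was 3.10 (SE 1.37, adjusted p = 0.458), in a fit that Nfkbiz entered only through the Indirubin libraries in which it was high. Without Indirubin-2, which held 96 of the Indirubin counts, it was 1.43 (adjusted p = 0.997), and without DSS-1 it was 4.28 (adjusted p = 0.424).

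Lbp (ENSMUSG00000016024; chromosome 2, 158148413 to 158174772) encodes lipopolysaccharide-binding protein, a secreted acute-phase protein that hands bacterial endotoxin to CD14. It was the member with the most counts and the one that came nearest to the threshold. Its level was 10.1, 14.97 and 4.38 CPM in Control, 22.5, 28.2 and 58.1 in DSS, and 13.6, 69.3 and 108 in Indirubin. All DSS libraries lay above all Control libraries, and Indirubin-1 lay within the Control range. The log2 fold change for DSS versus Control was 1.91 (SE 0.46, adjusted p = 0.1), a fold of 3.76. The adjusted p was 0.00262 without a filter on low counts, 0.0123 where 10 counts were asked of each library, and 0.00645 by the Wald test of DESeq2. It was 0.188 with library size alone, 0.418 with all 9 libraries in one fit, and 0.0706 to 0.576 with a library left out.

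With Indirubin, the log2 fold change of Lbp was 2.73 versus Control (SE 0.67, adjusted p = 0.107) and 0.81 versus DSS (SE 0.63, adjusted p = 0.895). Without Indirubin-1, the value of Lbp against Control was 3.05 (SE 0.43, adjusted p = 0.00183), the 1 member under 0.05 in any of these fits. Lbp is itself an acute-phase gene and was low in the library left out for its low acute-phase output, so this p follows in part from that choice. In that fit 1.49% of 9721 tested genes were called higher. The value against DSS was 1.19 (adjusted p = 0.331) without the same library.

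**Figure D2:**
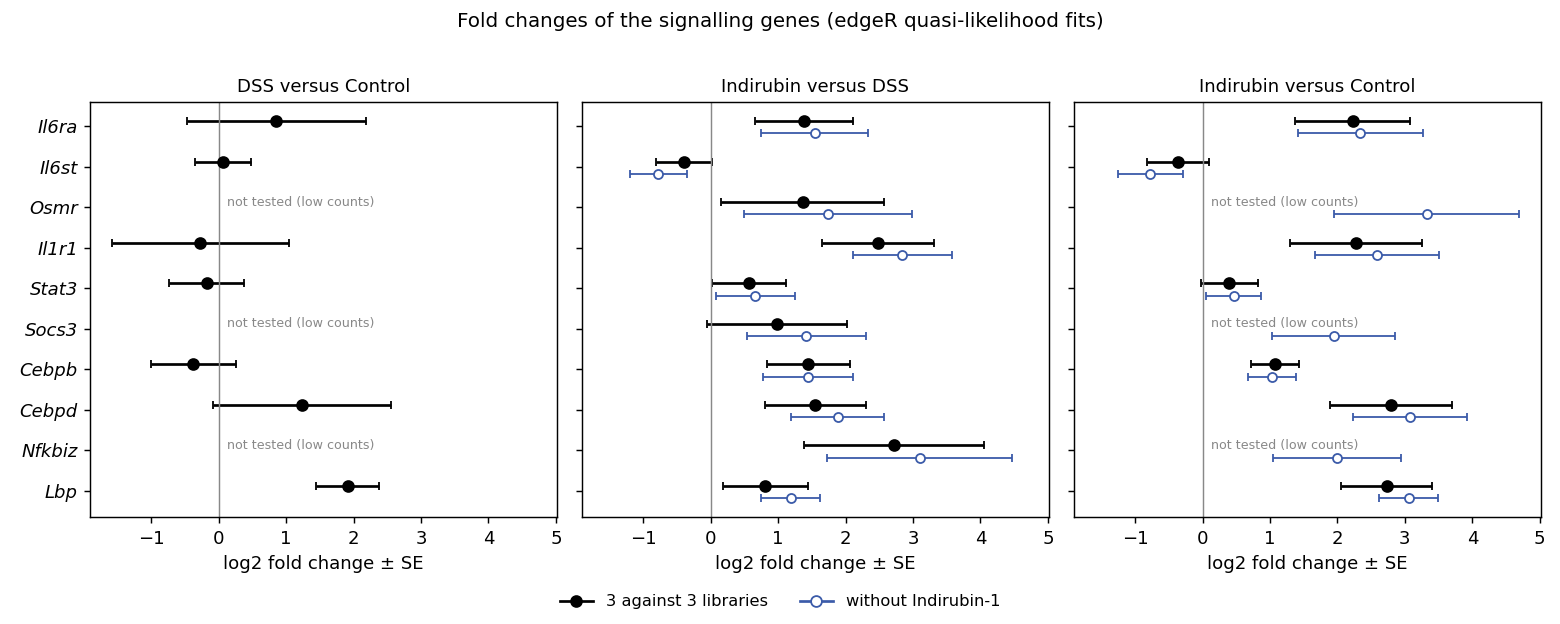
Log2 fold change ± SE of each gene in the 3 comparisons, from edgeR fits of 3 against 3 libraries (filled) and of fits without Indirubin-1 (open). Of the fits of 3 against 3, Lbp in DSS versus Control lies farthest from 0 for its error (1.91 ± 0.46), and for Indirubin versus DSS all genes but Il6st lie to the right of 0.

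None of the 10 genes passed an adjusted p of 0.05 in any fit of 3 against 3 libraries, where 0.708% of 7482 tested genes did for DSS versus Control, 0% of 9117 for Indirubin versus DSS and 0.236% of 8059 for Indirubin versus Control. For Indirubin versus DSS, 700 of all genes (7.68%) had an unadjusted p under 0.05 in edgeR, and the DESeq2 Wald test called 80 genes, none of them a member. Osmr, Socs3 and Nfkbiz had too few counts to enter either comparison with Control. For DSS versus Control, 4 of the 7 tested members had a positive value (all 7 with library size alone as the scaling, which moved the median of all genes to 0.70), with a median log2 fold change of 0.06 against 0.01 over all genes tested. At an unadjusted p under 0.05, Lbp alone was higher (3.48% of all genes), as it was alone in lying higher without overlap (7.1%).

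For Indirubin versus DSS, 9 of 10 members had a positive log2 fold change, with a median of 1.37 against 0.15 over all genes. Il1r1 and Cebpb had an unadjusted p under 0.05 (4.45% of all genes were higher at that level), and Il6ra and Cebpb did not overlap (10.5%). For Indirubin versus Control, 6 of the 7 tested members were positive (all 7 with library size alone, at a median of all genes of 1.10), with a median of 2.22 against 0.13. An unadjusted p under 0.05 was reached by Lbp, Cebpd, Cebpb, Il6ra and Il1r1, against 7.45% of all genes that were higher at that level. Il6ra, Cebpb and Cebpd did not overlap, against 12.2% of all genes. The filter asks for about 10 counts in 3 libraries. Control alone did not meet this for Cebpd (10, 8 and 0 counts), Il6ra (10, 12 and 0) or Il1r1 (0, 16 and 17). DSS alone did not for Il6ra (26, 3 and 39), Il1r1 (6, 9 and 37) or Cebpb (87, 6 and 110). These genes entered the fits through Indirubin libraries, in which they were high, so their p or lack of overlap is conditioned on that. A test of any difference among the 3 groups called none of the 10 genes, against 0.659% of 9713, with 4 at an unadjusted p under 0.05 (10.3% of all genes). Lbp had the smallest adjusted p (0.122), followed by Il1r1 (0.372) and Cebpd (0.379).

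The share of genes that were higher without overlap grew when Indirubin-1 was left out, to 21% of all genes against DSS and 25.1% against Control. A group of 2 libraries overlaps less often than a group of 3 whatever its values, so nothing is read from the growth of these shares or of the members' counts beside them. Against DSS, 7 members were then higher without overlap, 4 of them at an unadjusted p under 0.05 (5.02% of all genes). Nfkbiz is in both counts, but it had 11, 0 and 3 counts in DSS. It passed the filter there only through the Indirubin pair in which it was high, so its place is conditioned on that. Osmr, Socs3 and Nfkbiz entered the fit against Control only once that library was left out and are not counted there. Of the 7 other members, 5 were higher without overlap against Control, all at an unadjusted p under 0.05 (8.69% of all genes). Of these, Cebpd had 10, 8 and 0 counts in Control and passed the filter only through the Indirubin pair in which it was high. None was called against DSS at an adjusted p under 0.05, where 1.24% of 10817 genes were. Indirubin-1 was the lowest Indirubin library for 9 of the 10 members, while this held for 38.8% of the 9713 genes that passed the filter over all libraries. It lay within the Control range for 6 members, above it for Il6ra, Cebpb and Cebpd, and at its lower end for Socs3, where Indirubin-1 and Control-3 had 1 count each and no order is read. Over all genes these shares were 47.2%, 30.1% and 22.7%. The library was set apart by its low acute-phase output, to which the members are tied by their choice, so its positions are not independent of that.

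Per kilobase of gene length, the mean level over the 9 libraries was highest for Cebpb (8.08 CPM per kb) and Lbp (7.57), followed at a distance by Stat3 (1.34), Il6st (1.28) and Cebpd (1.03). Il1r1 (0.784), Socs3 (0.775), Il6ra (0.389), Nfkbiz (0.349) and Osmr (0.142) came last. Neighbours in this order had ranges over the libraries that overlapped, so only distant genes are set apart by it. Cebpb ranged from 0.707 to 14.2 CPM per kb and Osmr from 0 to 0.578. The order differed between groups: in DSS mice Lbp (7.51 ± 3.96 CPM per kb) was above Cebpb (4.75 ± 3.50), and in Control mice it was below (2.03 ± 1.10 against 6.36 ± 0.81; SD, n = 3).

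Marker lists of other cell types were summed in each library. Neutrophil markers summed to 1.17 to 3.65 CPM in Control, 11.5 to 19.8 in DSS, and 28.6, 253 and 91.8 in Indirubin-1 to Indirubin-3. S100a8 and S100a9, which neutrophils express strongly, were detected in every library, whereas Cxcr2 was at 0 in all 9 and Ly6g in all but Indirubin-2. These genes carried most of the sum, with 1449 and 1292 of 3084 counts in Indirubin-2 for S100a8 and S100a9. In Indirubin-3 they had 444 and 483 of 1062. Kupffer cell and macrophage markers, all 12 of which were detected in every library, summed to 132 to 221 CPM in Control, 172 to 199 in DSS and 217 to 304 in Indirubin. Sinusoidal endothelial markers spanned 49.4 to 98.3 CPM in Control, 31.9 to 59.7 in DSS and 65.8 to 89.6 in Indirubin. Stellate cell markers spanned 132 to 208, 69.4 to 114 and 108 to 196 CPM, and T and B cell markers 2.92 to 5.64, 3.38 to 15.2 and 4.18 to 14.3 CPM. Indirubin-2 and Indirubin-3 were the highest of the 9 for Il6ra, Il1r1, Socs3, Cebpb, Cebpd, Nfkbiz and Lbp. They also had the highest sums of acinar, of neutrophil, and of Kupffer cell and macrophage markers (the last at 304 and 278 CPM). The part of these cells in the levels of the signalling genes was not tested.

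**Figure D3:**
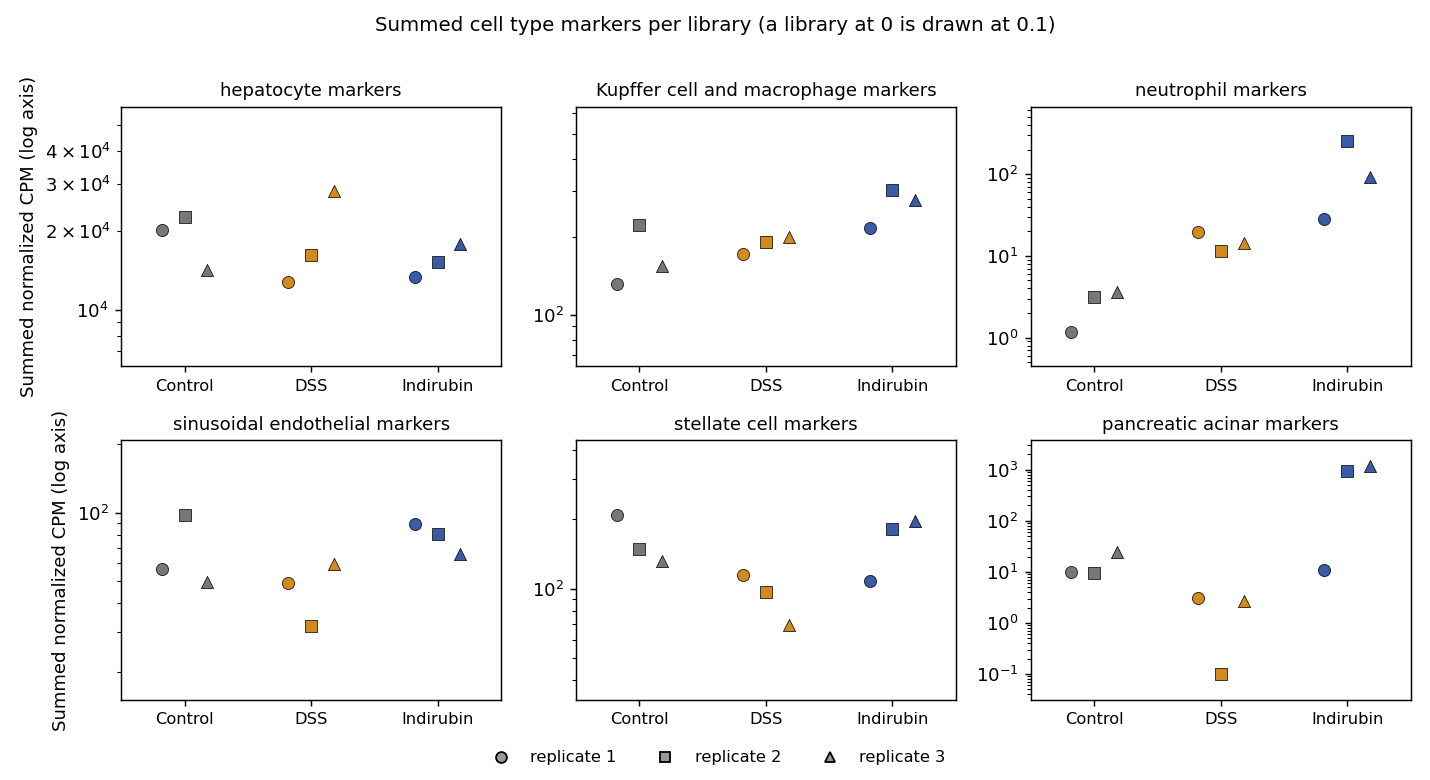
Summed normalized CPM of 6 lists of cell type markers in each library (log axes; a library at 0 is drawn at 0.1). Acinar markers stand at 944 and 1171 CPM in Indirubin-2 and Indirubin-3 and at 24.4 or less elsewhere, while hepatocyte markers stay within 12786 to 28116 CPM.

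The cytokines that start the signal were mostly near or below detection in the liver itself. Of 16 ligand genes, 14 had any count, 6 had 3 counts or fewer in every library, and 5 could be tested for Indirubin versus DSS. Il6 had 6 counts in Indirubin-2 and 0 in every other library, and Il22 and Cntf were at 0 in all 9. Osm, which encodes oncostatin M, had 7 counts in Indirubin-1, 12 in Indirubin-2 and 0 elsewhere. Il1rn, which encodes the natural antagonist of the IL-1 receptor, was the ligand gene with the most counts, 3, 1 and 12 in Control, 22, 30 and 9 in DSS, and 8, 187 and 194 in Indirubin. Its log2 fold change for Indirubin versus DSS was 1.98 (SE 0.83, adjusted p = 0.609), and 2.39 without Indirubin-1 (adjusted p = 0.153). Against Control it was 3.29 (adjusted p = 0.163), and 3.66 without Indirubin-1 (SE 0.79, adjusted p = 0.0219), where 1.49% of all genes were called higher. With 3, 1 and 12 Control counts, Il1rn entered that fit only through the Indirubin pair in which it was high, so the call is conditioned on that. Il1b, with 0 to 82 counts per library, had an adjusted p of 0.981 for Indirubin versus DSS.

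Of the 14 other receptor subunits, 8 were tested for DSS versus Control and 9 for Indirubin versus DSS, and none was called in either. Lifr, which encodes the partner of gp130 for leukaemia inhibitory factor, stood at 33.3, 36.8 and 29.5 CPM in Control, 19.2, 19.5 and 25.0 in DSS, and 14.3, 6.15 and 6.39 in Indirubin. Its 3 groups did not overlap in any comparison and lay in that order, where 8.54% of all genes were lower without overlap for DSS versus Control, 5.92% for Indirubin versus DSS and 9.32% for Indirubin versus Control. The log2 fold change was -0.61 for DSS versus Control (adjusted p = 0.721), -1.26 for Indirubin versus DSS (adjusted p = 0.512) and -1.89 for Indirubin versus Control (adjusted p = 0.0857). Without Indirubin-1 the value against Control was -2.51 (SE 0.35, adjusted p = 0.00166), where 3.29% of all genes were called lower. Il1rap, the co-receptor of Il1r1, had a log2 fold change of -1.15 for Indirubin versus DSS (SE 0.45, adjusted p = 0.571), opposite in sign to that of Il1r1, and of -1.21 without Indirubin-1 (adjusted p = 0.393). Tnfrsf1a, a receptor for tumour necrosis factor, stood at 1.97 for DSS versus Control (adjusted p = 0.594).

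Among the other JAK-STAT relay genes, 12 of 13 were tested for DSS versus Control and 1 was called. Stat2, a mediator of type I interferon signalling, fell by 2.5 on the log2 scale (SE 0.45, adjusted p = 0.0234; 0.495% of all genes were called lower), from 21.8, 65.9 and 24.8 CPM in Control to 4.74, 7.80 and 6.67 in DSS. In Indirubin it stood at 8.08, 2.79 and 1.81 CPM, again below all Control libraries. Jak2, a kinase bound to gp130, also lay lower in DSS without overlap, at -1.95 (adjusted p = 0.613). Against Control the value of Stat2 was -3.17 with all Indirubin libraries (adjusted p = 0.0599) and -4.12 without Indirubin-1 (adjusted p = 0.00172). The median of the list was -0.28 for DSS versus Control, against 0.01 over all genes, and 0.17 for Indirubin versus DSS, against 0.15. None of its genes was called for Indirubin versus DSS. The call of Stat2 for DSS versus Control was kept in 7 of 14 alternatives. It was lost with library size alone, with all 9 libraries in one fit, and without Control-2, Control-3 or any DSS library (adjusted p up to 0.28), with values from -2.82 to -1.86.

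For the relay from IL-1 to NF-kB, 14 of 16 genes were tested in both comparisons, none was called, and the medians (-0.05 and 0.04) lay near 0. Traf6, a ubiquitin ligase of this relay, had 54, 41 and 81 counts in Indirubin against 15, 0 and 15 in DSS, at a log2 fold change of 2.62 (SE 0.95, adjusted p = 0.519), or 2.16 without Indirubin-1 (adjusted p = 0.679). Among 16 feedback inhibitors, 10 of the 11 tested genes had a positive value for Indirubin versus DSS and none was called, with a median of 1.24 against 0.15 over all genes. Without Indirubin-1, 11 of 13 were positive, none was called, and the median was 0.58 against 0.10. Zfp36, which encodes a protein that speeds the decay of cytokine mRNAs, stood at 1.97 (adjusted p = 0.628), and Nfkbia, the inhibitor of NF-kB, at 1.24 (adjusted p = 0.742). Without Indirubin-1 these were 2.19 and 1.57 (adjusted p = 0.382 and 0.322). Socs2, of the same family as Socs3, had a value of -2.16 for DSS versus Control (adjusted p = 0.436) and of 1.78 for Indirubin versus DSS (adjusted p = 0.63), or 1.92 without Indirubin-1 (adjusted p = 0.484).

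The other C/EBP and AP-1 factors had 9 of 14 genes tested, of which 8 were positive for Indirubin versus DSS and none was called. Junb, an AP-1 subunit, stood at 3.32, 1.06 and 2.56 CPM in DSS and 4.04, 17.6 and 15.6 in Indirubin, a log2 fold change of 2.41 (SE 0.65, adjusted p = 0.433). Against Control it was 2.696 (adjusted p = 0.118). Without Indirubin-1 the value against DSS was 2.72 (SE 0.56, adjusted p = 0.0381), where 0.536% of all genes were called higher. The value against Control was 2.96 (adjusted p = 0.0163), where 1.49% were. Junb had 7, 21 and 3 counts in Control and passed the filter there only through the Indirubin pair, so that call is conditioned on it. Fosl2, a further subunit, stood at 6.87, 0.89 and 6.31 CPM in DSS and 28.8, 15.4 and 12.01 in Indirubin (1.97, adjusted p = 0.473), or 1.43 without Indirubin-1 (adjusted p = 0.508). Here, unlike in most of the 10 genes, Indirubin-1 was the highest library. Cebpa, the C/EBP factor of resting hepatocytes, had a value of 0.011 for DSS versus Control and -0.33 for Indirubin versus DSS (adjusted p = 1 and 0.963).

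**Figure D4:**
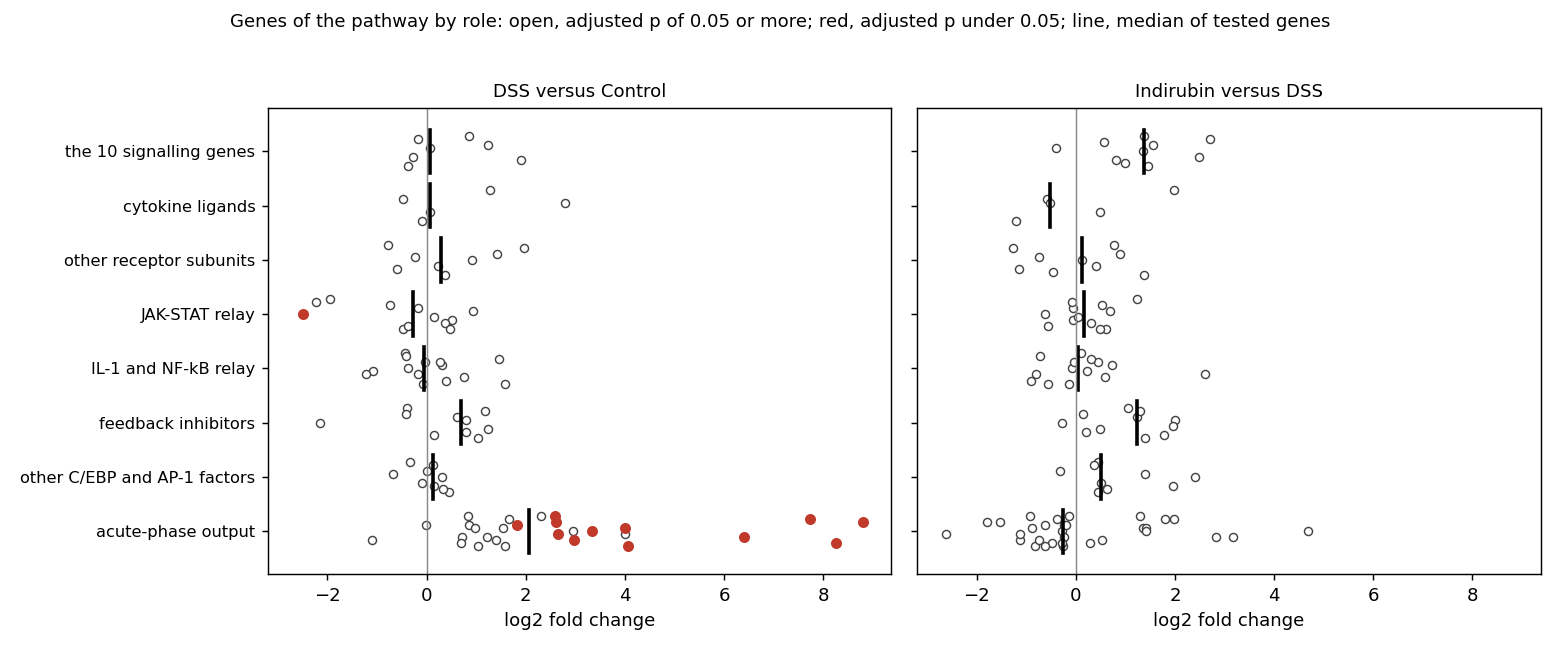
Log2 fold change of each tested gene by role in the pathway, for DSS versus Control and for Indirubin versus DSS (points; line, median; red, adjusted p under 0.05). For DSS versus Control the red points are 12 acute-phase genes and Stat2, and for Indirubin versus DSS no point is red.

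The largest differences between DSS and Control lay in the output of the pathway, not in its signalling genes. Of 31 acute-phase genes, 28 were tested for DSS versus Control, 26 had a positive value and 12 rose at an adjusted p under 0.05, where 0.214% of all genes were called higher. None was called lower, and the median log2 fold change was 2.07 against 0.01 over all genes. The count of 12 depended on single libraries: it was 6 without Control-1, 4 without Control-2, 4 without Control-3 and 6 without DSS-3, and 18 without DSS-1. Apcs, which encodes serum amyloid P, rose by 4.06 (SE 0.51, adjusted p = 0.00216) and Saa1 by 8.25 (adjusted p = 0.00142). Fgl1, a secreted hepatokine, rose by 3.33 (adjusted p = 0.00436) and the haem carrier Hpx by 2.65 (adjusted p = 0.0321). Apcs and Saa1 were called in all 14 alternatives, Fgl1 in 12 (not without Control-2 or Control-3) and Hpx in 7, with an adjusted p up to 0.34. Orm2, of a gene family whose reads can be shared, rose by 7.74 (adjusted p = 0.00216). With 0, 16 and 4 counts in Control, Orm2 passed the filter only through the DSS libraries in which it was high. The list overlaps in part with hepatocyte markers, sharing Fgb.

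Summed acute-phase output was 4066 to 6798 CPM in Control and 9118 to 37230 in DSS. In Indirubin it was 4588, 21057 and 31667 CPM, so Indirubin-1 stood within Control and the others within DSS. For Indirubin versus DSS none of the 31 genes was called, 11 were positive and 20 negative, and the median was -0.25 against 0.15 over all genes. Without Indirubin-1 this balance was gone, with 16 positive, 15 negative and a median of 0.02 against 0.10. In that fit 1 gene was called higher, Mt2 (adjusted p = 0.0293), where 0.536% of all genes were. Its reads may be shared with Mt1. Mt2 had 0, 0 and 16 counts in DSS against 165 and 347 in Indirubin-2 and Indirubin-3. It passed the filter only through that Indirubin pair, so the call is conditioned on that and on the choice of library. Hamp, which encodes the iron hormone hepcidin and is a known STAT3 target, had the smallest p of the list, at 33.7, 110 and 101 CPM in DSS and 12.3, 20.2 and 7.0 in Indirubin. Its log2 fold change was -2.63 (SE 0.55, adjusted p = 0.352), with no overlap, and -2.69 without Indirubin-1 (adjusted p = 0.0656). Crp, at -1.12 with and without Indirubin-1 (adjusted p = 0.538 and 0.352), was also lower without overlap. Saa3, which macrophages also make, stood at 2.83 (adjusted p = 0.587), and Cd14, the partner of Lbp, at 3.16 (adjusted p = 0.609), both with overlap. Without Indirubin-1 these were 3.30 and 3.60 (adjusted p = 0.0873 and 0.264). Cd14, with 0, 0 and 31 counts in DSS, passed the filter through the Indirubin libraries in which it was high, so its values are conditioned on that. Against Control, 25 of the 29 tested genes were positive and none was called with all 3 Indirubin libraries (18 were higher at an unadjusted p under 0.05). Without Indirubin-1, which was set apart by a gene of this list, 22 of the 31 genes had a positive value at an adjusted p under 0.05 and none a negative one (1.49% of all genes were called higher). These calls follow in part from that choice of library. Mt2 (0 counts in each Control library) and Cd14 (0, 6 and 4) entered the fit against Control only once Indirubin-1 was left out. Like others of the 22, such as Orm2 (0, 16 and 4) and Saa3 (5, 9 and 0), they passed the filter only through the Indirubin pair. Their calls are conditioned on that, and nothing is read from them.

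**Figure D5:**
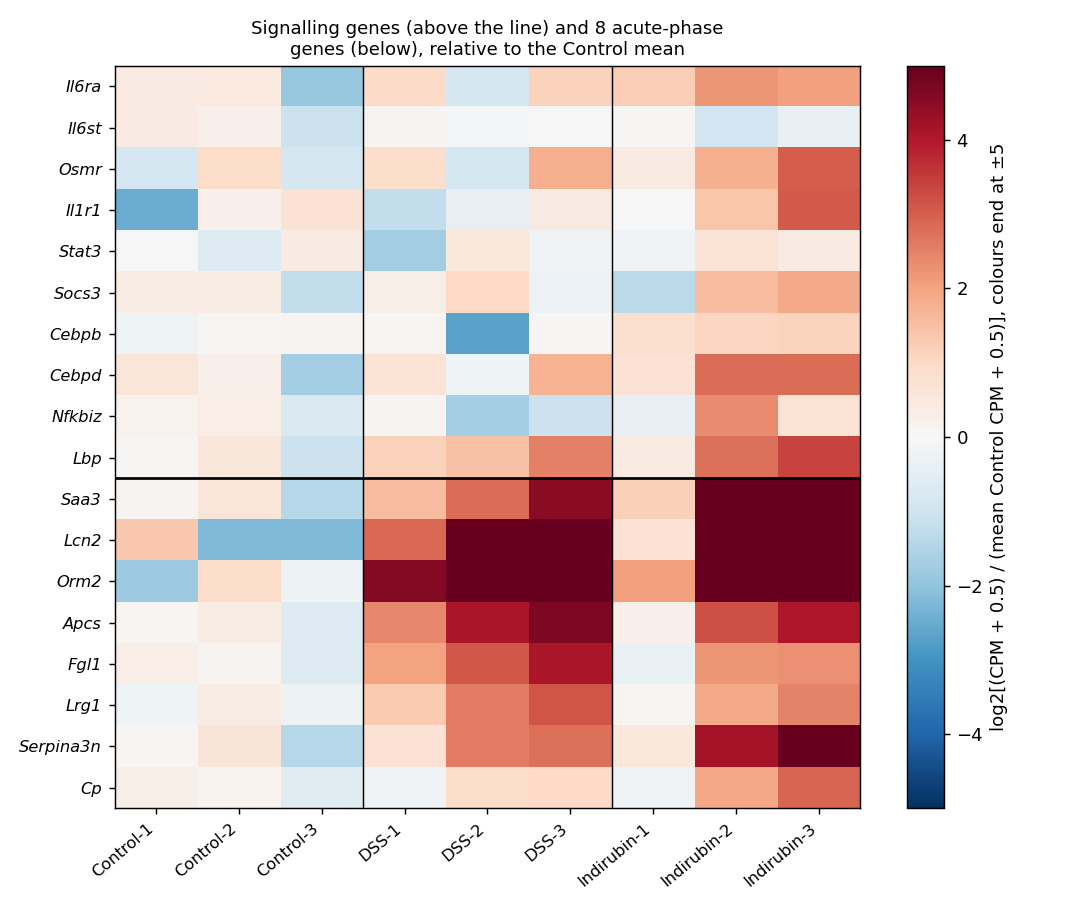
Colour gives log2 of (CPM + 0.5) over the Control mean of the same quantity, for the 10 signalling genes and 8 acute-phase genes in each library, with colours ending at ±5. In Indirubin-1 the value of Lbp is 0.45 and that of Apcs 0.26, against 2.76 and 3.24 in Indirubin-2, while Orm2 reaches 7.89 in DSS-3.

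Across the 9 libraries the members did not share a single pattern. Pearson correlations of log2 CPM, given as descriptions because the libraries differ in depth and group, were highest between Il6ra and Cebpd (r = 0.96) and between Cebpd and Lbp (0.89). Il6st and Il1r1 ran opposite (r = -0.63), and Stat3 ranged from -0.57 with Il6st to 0.41 with Il1r1, at 0.20 with Socs3. Over all genes that passed the filter, Stat3 was most like Rabggtb (r = 0.93), Rdh14 (0.92) and Cdk4 (0.91). Socs3 was most like Bcl10 (0.95), Btbd1 (0.94) and Fam117b (0.94). All of these genes are low, with 2 to 125 counts per library for the first set and 0 to 134 for the second.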

How the data were processed

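Liver RNA of 9 mice (400 ng per library) was sequenced on a DNBSEQ platform by the authors and mapped to GRCm39 according to the submitters' processing notes. The aligner, counter and annotation are not given in the sources used here. The counts deposited by the authors are whole reads per gene without normalization. The deposited FPKM values, the authors' group means, fold changes and p-values, and 3 gene lists without values per mouse were not used.

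The quasi-likelihood test of edgeR 4.0.16 was run in R 4.3.3 after TMM normalization, keeping genes by filterByExpr (count 10, total 15), with glmQLFit and glmQLFTest, on the 6 libraries of each comparison and on all 9 for any difference, with Benjamini-Hochberg adjustment over all genes tested and a threshold of 0.05. The standard error is the log2 fold change over the square root of F. Correlations used log2 CPM with a prior count of 2. Figures were drawn with matplotlib 3.10.9. The test was checked on simulated counts.

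All 10 genes are named. Of each pathway list, the text draws on up to 3 genes each way with the smallest p in DSS versus Control and Indirubin versus DSS, and on the 3 genes most like Stat3 and Socs3. Il6, Il22, Cntf, Osm, Hpx, Cebpa and the markers named were chosen after their values were seen. One gene of the lists is not reported here by name. The members and lists were chosen with earlier results of these data known. Promoter sequences are from RefSeq (GRCm38.p6), matched by symbol. Labels do not say that mice were housed or processed apart, so p-values measure the spread between these 9 samples. With 3 against 3 samples an exact two-sided permutation test cannot go below 0.1, so none was run on single genes. Alternatives were size factors of DESeq2, library size alone, no filter, at least 10 counts in every library, the Wald test of DESeq2 1.42.0, no mitochondrial genes, the replicate block, all 9 libraries in one fit, and each library left out.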

Additional observations from a re-analysis of the deposited data

How the results depend on the processing

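For DSS versus Control, 53 genes were called, against 19 with library size alone, 125 with no filter, 84 with at least 10 counts in every library, 143 by the DESeq2 Wald test, 11 with all 9 libraries in one fit, and 12 to 64 with a library left out. For Indirubin versus DSS (0 called, 700 at an unadjusted p under 0.05) these counts were 2, 156, 2, 80, 4 and 0 to 134, with 134 when Indirubin-1 was left out. For Indirubin versus Control (19 called) they were 266, 379, 72, 316, 56 and 1 to 465, with 465 when Indirubin-1 was left out. For any difference among the groups (64 called), no filter gave 319 and leaving out a library 43 to 373.

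Members called against Control were at most 1 for DSS, which was Lbp with no filter, with at least 10 counts and by the Wald test (adjusted p = 0.00262, 0.0123 and 0.00645). For Indirubin 3 were called with library size alone (Lbp, Cebpb and Cebpd) and with no filter (Lbp, Il1r1 and Cebpd), 1 with at least 10 counts or the Wald test, and 0 to 1 with a library left out. For any difference 1 was called with library size alone or at least 10 counts, 2 with no filter, and 0 to 1 with a library left out. None was called for Indirubin versus DSS in any alternative. Library size alone moved the median log2 fold change of all genes to 0.70, 0.43 and 1.10 for DSS versus Control, Indirubin versus DSS and Indirubin versus Control, and the share of called genes that were higher from 30.2 to 73.7% in the first and from 26.3 to 93.6% in the third. It turned Cebpb (0.44), Stat3 (0.46) and Il1r1 (0.59), all below that shift, positive for DSS versus Control, and Il6st (0.47) for Indirubin versus Control. With a library left out, values for DSS versus Control ran across 0 for Il6st (-0.33 to 0.30), Stat3 (-0.79 to 0.24), Il1r1 (-0.95 to 0.43) and Cebpb (-0.76 to 0.094). The sign turned without Control-3 or DSS-1 for Il6st, Stat3 and Il1r1, and without DSS-2 for Cebpb. The cause was not tested. All 132 members' values for Indirubin versus DSS kept their sign and their side of the threshold.

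Chosen after seeing the data, the same alternatives were run on the 12 acute-phase genes called higher for DSS versus Control, which were 19 with no filter, 7 with the replicate block, 5 with all 9 libraries in one fit and 4 to 18 with a library left out.

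The mice of 1 number in different groups share only that number: correlations of their deviations were -0.025 to 0.024. The replicate block gave 30 called genes for DSS versus Control, 3 for Indirubin versus DSS and 49 for Indirubin versus Control, called no member (Lbp at an adjusted p of 0.226 for DSS versus Control), and turned Il1r1 positive (0.40) for DSS versus Control. Depth limits the low genes: Osmr had 7 counts over the 3 Control libraries in all, Cebpd and Nfkbiz 18 each, and Socs3 20.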
